A study of Mus musculus with 2 samples.

Results

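The 4 signalling FGF receptor genes Fgfr1 to Fgfr4, the receptor-like gene Fgfrl1 and the 3 klotho family genes Kl, Klb and Lctl were examined in mIMCD3, a mouse cell line of epithelial type derived from the inner medullary part of the collecting duct. Members were all non-control spots that the array annotation assigned to these 8 gene names, which gave 14 probes on 23 spots per array, out of 55681 probes for 34763 gene names. The study compared mIMCD3 cells given FGF23 at 10 ng/mL for 4 h with unstimulated cells of the same line, both grown in medium with serum, and FGF23 is the only agent named in the labels. Both RNAs were hybridised together on each of 2 two-colour arrays with swapped dyes, so that FGF23 RNA carried Cy3 on array 1 and Cy5 on array 2, per the labels. Whether separate cultures stand behind the arrays is not stated in the labels, so the spread between these arrays may be only technical. That spread also holds each gene's dye effect, which cancels only in the mean of the arrays. The p-values rest on it, with the variance drawn mostly from all genes together and little from the gene itself. Results from a single line describe that line and not the kidney tubule at large.

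FGF23 is a hormone from bone that acts on cells carrying an FGF receptor together with klotho, the membrane protein encoded by Kl, which raises the affinity of the receptor for FGF23. In the kidney, klotho is known mainly from the distal convoluted and proximal tubule. The related protein beta-klotho, encoded by Klb, serves FGF21 and FGF15 in the same way, and Lctl encodes a further member of the klotho family. Fgfr1 to Fgfr4 encode receptor tyrosine kinases that signal through the adaptor FRS2 to RAS and ERK, whereas the Fgfrl1 protein lacks the kinase domain.

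Of 59305 non-control spots per array, between 48.2% and 55.2% were well above background in a given dye by the flag of the scanner software, and none was saturated. The precision is limited by the number of arrays. Of 22 collecting duct and renal epithelium markers, 15 had a probe well above background on both arrays of a condition. Over all genes this share was 55.3%. The 15 included the water channel gene Aqp2 and the sodium channel gene Scnn1a, but also genes of epithelium at large such as Cdh1 and Epcam. The 7 without such a probe were Aqp3, Aqp4, the vasopressin receptor gene Avpr2, Scnn1b, Scnn1g, Elf5 and Hsd11b2. The pooled count is therefore no measure of collecting duct identity. Of distal convoluted and connecting tubule markers 3 of 9 had one, namely Trpm6, Pvalb and S100g, while Slc12a3, Calb1 and Trpv5 were among those not measured. Of proximal tubule markers 5 of 12 had one, namely Lrp2, Cubn, Aqp1, Slc22a6 and Ggt1, while Slc34a1 and Slc34a3 were among those not measured. The counts were 1 of 5 for thick ascending limb, 2 of 5 for intercalated cells, 1 of 9 for fibroblasts, 4 of 8 for macrophages and 3 of 7 for endothelium. None of the measured markers passed the test between conditions.

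Each probe is an oligonucleotide of 60 bases, and its place in the transcript decides which RNA it can report. Stretches that bear on the results are shown 5′ to 3′ as the array design lists them, with their positions on mm9, the mouse build named in the file headers. The first pair below belongs to the probes of Fgfr1 and Fgfr4 that lie farthest upstream in these genes, and capitals mark the bases they share when laid side by side without gaps. The Fgfr3 probe follows, with capitals for the bases it shares with that Fgfr1 probe in a placement without gaps, 20 of 35 overlapping bases. Placements that overlap by less than 30 bases were not considered, so bases that match in those stay in lower case. The longest identical run in the Fgfr3 placement shown is 5 bases. A shorter overlap of the same probes holds a longer run, so these capitals do not mark their best shared stretch. For Kl and Klb the first 30 bases are shown, because the question of a receptor complex turns on these probes.
Fgfr1 A_55_P1967022 (chr8:26684061-26684120, + strand): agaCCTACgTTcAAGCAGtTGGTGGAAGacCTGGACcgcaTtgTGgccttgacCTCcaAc
Fgfr4 A_55_P2121871 (chr13:55269212-55269271, + strand): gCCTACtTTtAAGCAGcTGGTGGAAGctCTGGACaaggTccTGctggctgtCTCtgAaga
Fgfr3 A_65_P06147 (chr5:34077856-34078090, + strand): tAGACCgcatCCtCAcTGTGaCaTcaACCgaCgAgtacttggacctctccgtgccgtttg
Kl A_52_P439358 (chr5:151795712-151795771, + strand): tgagtggtcttattgataaccctgatacca
Klb A_51_P464394 (chr5:65774926-65774985, + strand): ttttcagctaaactgccatttctgtcatag

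The Fgfr1 and Fgfr4 probes shared 35 of 58 overlapping bases, with a longest identical run of 9 bases. Among overlaps of at least 30 bases, that was the highest identity, 60.3%, in the 83 pairs of probes from different member genes. Shorter overlaps, which can reach a higher identity, were not scored. Probes were compared only with each other and not with whole transcripts. Each of the first 3 probes had 2 of 3 reading frames free of stop codons, as had a further probe each of Fgfr1, Fgfr3 and Fgfr4. The Fgfr3 probe has a genomic span of 235 bases, longer than its own length, and thus bridges a gap in the genome. The Kl probe had a stop codon in every frame, and so had both Fgfr2 probes and the probes of Fgfrl1 and Lctl. Exon and UTR annotation on this build was not analysed here.

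Kl, the co-receptor gene for FGF23, was not well above background in any of the 4 measurements of its only probe. Its mean signal, background included, was 42.5 with FGF23 (Cy3) and 44.6 without (Cy5) on array 1. On array 2 it was 51.0 with FGF23 (Cy5) and 41.0 without (Cy3). The local background medians beside the spot were between 35.5 and 42.0. Negative control spots, of which each array had 308, measure signal without a matching transcript, and the Kl signal lay above 93.2%, 93.8%, 96.1% and 84.4% of them in that order. Kl therefore stayed inside the range of the negative controls in both conditions. The single measurement that the scanner software called positive and significant against background was that of array 2 with FGF23 (p = 3.3e-06 in the authors' deposited file), while in the unstimulated RNA on array 2 that p was 0.5. In the same dye on array 1, which held unstimulated RNA, it was 0.019. This pattern was not particular to Kl. The Fgfr3 probe A_55_P2150422, also inside the negative controls, had its only such call in the same measurement (p = 2.3e-04 in the authors' deposited file). For Kl, the log2 ratio of FGF23 over unstimulated was -0.0079 on array 1 and 0.11 on array 2, values at background level that were not tested. A doubled signal would have moved the log2 ratio of this probe by only 0.35 after processing, so these arrays say little about a change in Kl. A low signal of a probe does not show that the protein is absent.

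Klb, the co-receptor gene for FGF21 and FGF15, was also not well above background in any measurement, and it too lay within the range of the negative controls, near its upper end. Its signals were 43.8 with FGF23 and 55.5 without on array 1, and 60.5 with FGF23 and 48.9 without on array 2. Each exceeded the 95th percentile of the negative controls of its array and dye (43.4, 45.2, 49.0 and 44.1), by the narrowest margin for FGF23 on array 1. For Kl, this was so only with FGF23 on array 2. Between 5 and 14 of the 308 negative controls were at least as bright as Klb in a given measurement. All 4 were called positive and significant against background by the scanner software. The log2 ratios were -0.010 and -0.063, not tested.

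Lctl was the klotho family gene that was well above background in all 4 measurements. Its signals were 89.7 with FGF23 and 141 without on array 1, and 168 and 95.2 on array 2. Cy5 gave the higher value on each array, whichever RNA it carried. Its log2 ratio was 0.064 on array 1 and 0.0039 on array 2, with a mean of 0.034 ± 0.043 (SD, n = 2 arrays). The 95% interval of the log2 ratio ran from -0.15 to 0.22, and the adjusted p in limma was 1.0.

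**Figure D1:**
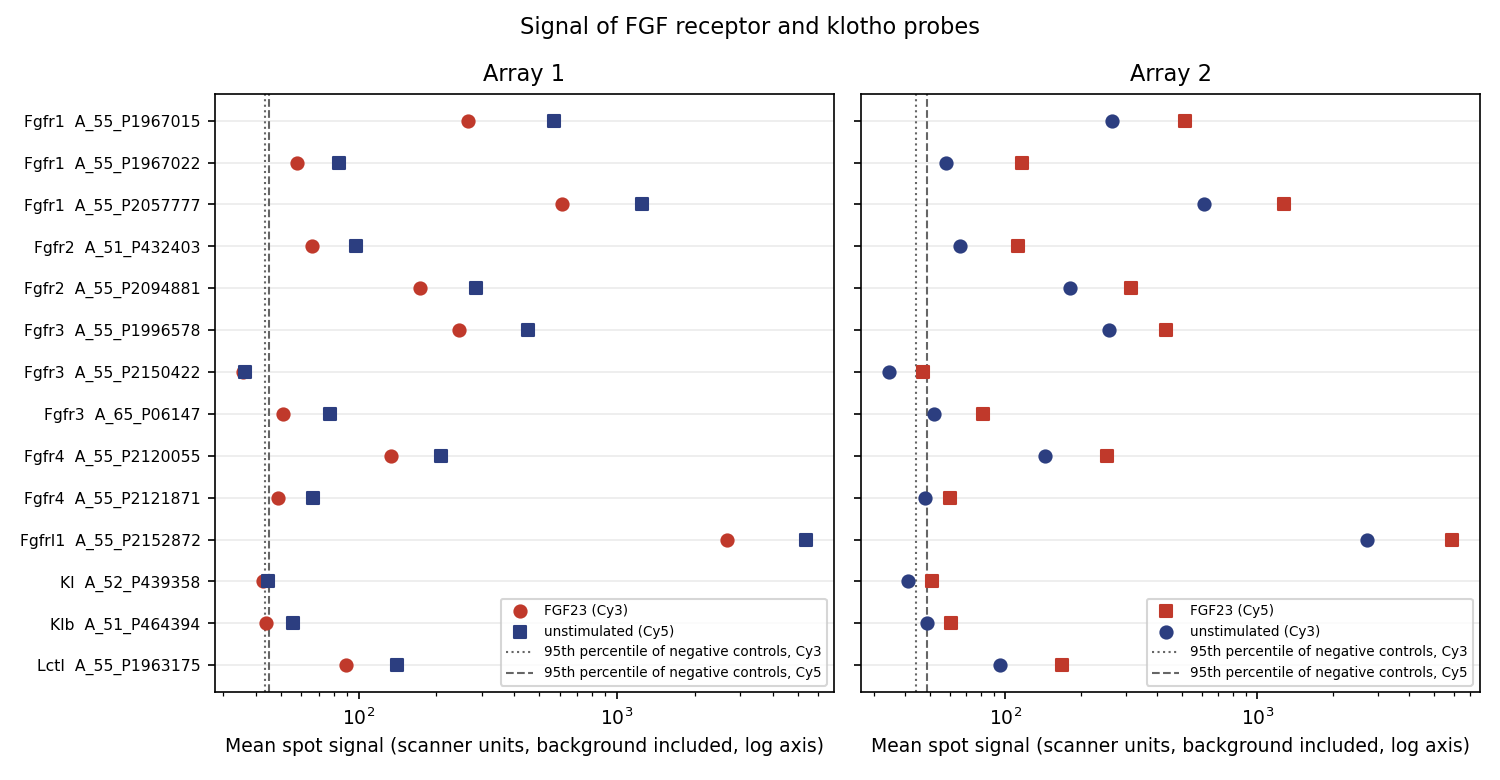
Mean spot signal (scanner units, background included, log axis) of each of the 14 probes on array 1 and array 2, with FGF23 RNA in red, unstimulated RNA in blue, Cy3 as circles and Cy5 as squares. Dotted and dashed lines mark the 95th percentile of the negative controls in Cy3 and Cy5. The Kl probe lies at these lines, the Klb probe close to them or to their right, and Cy5 is the brighter dye for all 14 probes on both arrays.

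By the well-above-background flag, 9 of the 14 probes passed in all 4 measurements, against 45.6% of all probes passing on both arrays in both conditions and 48.4% in at least one. Another 2 probes passed in some measurements and 3 in none. Counted by gene, 6 of 8 members had a probe that passed on both arrays of a condition, against 55.3% of all genes. With the flag for positive and significant signal, or with the 95th percentile of the negative controls as the limit, 12 of 14 probes and 7 of 8 genes were detected, Klb being the gene added. The share over all probes was 65.9% by the first of these rules and 63.1% by the second, and over all genes it was 71.2% and 68.8%. Kl and 1 Fgfr3 probe were left outside under all 3 rules.

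Among the signalling receptors, Fgfr1 encodes the kinase held to be the main klotho partner for FGF23 in kidney, and its 3 probes were well above background in every measurement. The brightest, A_55_P2057777 (chr8:26685072-26685131), had a signal of 611 with FGF23 and 1246 without on array 1, and 1270.4 and 612 on array 2. The log2 ratio was -0.0073 and -0.0070 on the arrays, the smallest spread of any member (mean -0.0071 ± 0.00023, SD, n = 2). The standard error in limma, which draws on all genes, was 0.086 and far above this spread. The 95% interval of the fold for Fgfr1 was 0.875 to 1.13.

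The other Fgfr1 probes bracketed this value. A_55_P1967015, which starts 748 bases farther downstream, had -0.10 and -0.027 on the arrays. The upstream probe printed above starts 1011 bases before the brightest and had 0.0036 and 0.28. Its signals were 57.5 with FGF23 (Cy3) and 84.0 without (Cy5) on array 1, and 58.2 without (Cy3) and 116 with FGF23 (Cy5) on array 2. Although well above background, it lay within the range of the negative controls in all but the last-named dye, Cy5 on array 2. Of 308 controls, 2 were at least as bright in each dye of array 1 and 1 in Cy3 of array 2. This upstream probe is the member probe with the highest mean, 0.14 ± 0.19. Its 95% interval of -0.056 to 0.34 includes 0 (unadjusted p = 0.15 and adjusted p = 1.0 in limma over all probes). The positive mean came from array 2, on which the log2 ratio from the authors' deposited log ratio was 0.67 with an error of 0.30 (p = 0.024 in the scanner's error model). On array 1 that ratio of the authors was -0.072 with an error of 0.33 (p = 0.83). The 3 probes of Fgfr1 thus gave means of both signs, each with an interval that included 0.

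Fgfr2, which encodes a receptor known for its role in ureteric bud branching, had 2 probes that overlap by 42 bases and differ only in their ends. The ends that are not shared are shown because these probes report almost the same stretch of RNA, on the minus strand.
Fgfr2 A_55_P2094881 (chr7:137307473-137307532), first 18 bases: atgccttatgaaccctgt
Fgfr2 A_51_P432403 (chr7:137307455-137307514), last 18 bases: gtgaatgtgtcttcctgt

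The first of these had signals of 173 with FGF23 and 284 without on array 1, and 316 and 181 on array 2. Its log2 ratio was 0.17 on array 1 and -0.11 on array 2, which have opposite signs, and the mean was 0.029 ± 0.20 (SD, n = 2). The second probe had mean signals of 66.0 with FGF23 and 97.3 without on array 1, and 112 and 66.2 on array 2. Each was below that of the first probe, although 42 bases are shared, so signal depends on the probe as well. This second probe was spotted 10 times on each array, which gives a direct view of spot-to-spot error. Over its 10 spots on array 1 the log2 ratio ran from -0.18 to 0.094 with a median of 0.041, and 7 spots were above 0. On array 2 it ran from -0.014 to 0.20 with a median of 0.061, and 8 spots were above 0. The spots of the arrays overlapped. The means of 0.015 ± 0.081 and 0.082 ± 0.082 (SD over 10 spots of 1 hybridisation, which are not replicates of the condition) differed by less than the SD of single spots. That SD is larger than the error of a mean of 10 spots, so it does not tell whether the means differ. Averaged over arrays, the probe had 0.048 ± 0.048 (SD, n = 2 arrays). The 95% interval of the log2 ratio was -0.17 to 0.23 for the first Fgfr2 probe and -0.14 to 0.23 for the second.

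**Figure D2:**
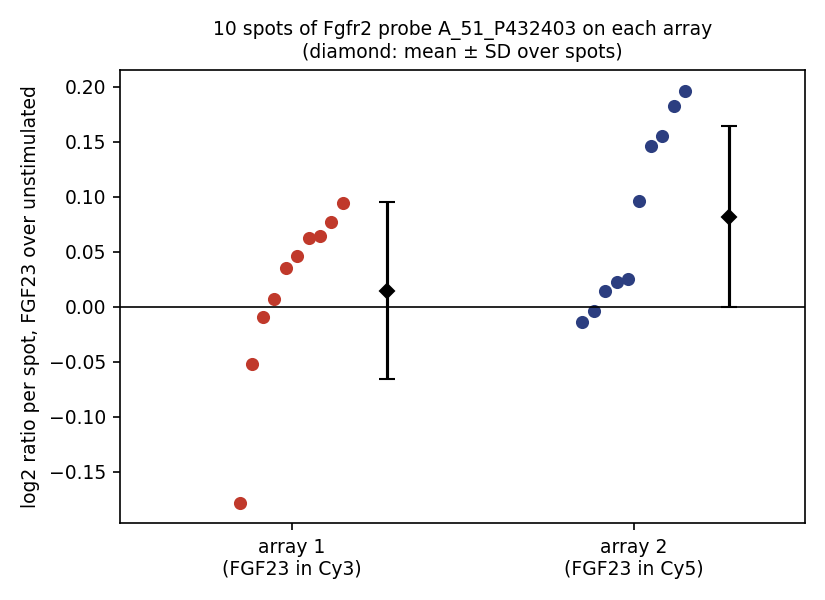
Log2 ratio of FGF23 over unstimulated for each of the 10 spots of the Fgfr2 probe A_51_P432403 on each array (points, sorted by value), with the mean and SD over spots as a diamond and bar. The spots of array 1 scatter around a mean of 0.015 and those of array 2 around 0.082, with SDs of 0.081 and 0.082.

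Fgfr3, whose protein is another partner of klotho, was measured by 1 of 3 probes. A_55_P1996578 (chr5:34079649-34079708) had signals of 244 with FGF23 and 454 without on array 1, and 432 and 258 on array 2. Its log2 ratio was 0.057 on array 1 and -0.23 on array 2. The mean of -0.084 ± 0.20 (SD, n = 2) was the lowest among the members, with a 95% interval of the fold from 0.819 to 1.09. The gap-bridging Fgfr3 probe printed above was well above background in Cy5 on both arrays and in Cy3 on neither. Its signals were 51.2 with FGF23 and 77.3 without on array 1, and 81.3 and 51.9 on array 2, so its detection followed the dye and not the treatment. The remaining probe, A_55_P2150422 (chr5:34074696-34074755), is assigned to an Ensembl transcript and starts 4953 bases upstream of the measured one. It gave 35.8 and 36.5 on array 1 and 46.9 and 34.6 on array 2, inside the negative controls in all 4 measurements. The scanner software called it positive and significant against background only on array 2 with FGF23, the same measurement as for Kl.

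Fgfr4, which encodes the receptor by which FGF23 can act without klotho in heart muscle, was measured by 1 of 2 probes. A_55_P2120055 (chr13:55270033-55270092) had signals of 133 with FGF23 and 209 without on array 1, and 253 and 143 on array 2. The log2 ratio was 0.16 on array 1 and -0.060 on array 2, and the mean of 0.052 ± 0.16 (SD, n = 2) was the highest among the member genes. Its 95% interval of the fold was 0.904 to 1.19. The upstream probe, which starts 821 bases before it, was well above background in 1 of 4 measurements only, that of unstimulated RNA in Cy5 on array 1 (66.7). In Cy3 its signals were 48.6 with FGF23 and 47.8 without.

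Fgfrl1, which encodes a receptor-like protein that binds FGFs without a kinase, had signals of 2650 with FGF23 and 5359.8 without on array 1, and 5898 and 2712 on array 2. Its probe (chr5:109135855-109135914) had log2 ratios of 0.071 and -0.0012 and a mean of 0.035 ± 0.051 (SD, n = 2). A doubled signal would have moved this ratio by 0.99, so background hardly compressed it. The 95% interval of the log2 ratio was -0.15 to 0.22.

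No receptor or klotho gene passed the test between conditions. In limma's test over 19220 genes, 0 of the 6 measured members passed at an adjusted p under 0.05, against 0.0468% of all genes, and 0 of 6 had an unadjusted p under 0.05, against 3.91%. In the same test over 26941 probes, 0 of the 9 measured member probes passed, against 0.0854% of all probes (0.0817% higher and 0.00371% lower), and 0 of 9 had an unadjusted p under 0.05, against 4.01%. Member means ran from -0.084 to 0.052, and the median of 0.032 lay beside a median of -0.00068 and a central 95% of -0.16 to 0.20 over all genes. The intervals of the brightest probes together spanned folds from 0.819 to 1.19. Folds beyond that range lie outside all 6 of these intervals, and folds within an interval cannot be told from no change for that gene. Over the 9 measured member probes the intervals of the log2 ratio reached farther up, from -0.28 to 0.34. All these intervals are of ratios as processed and do not allow for their compression. For probes close to background the ratios are compressed, since a doubled signal would have appeared as 0.60 in the upstream Fgfr1 probe, 0.61 in the 10-spot Fgfr2 probe and 0.72 in Lctl.

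**Figure D3:**
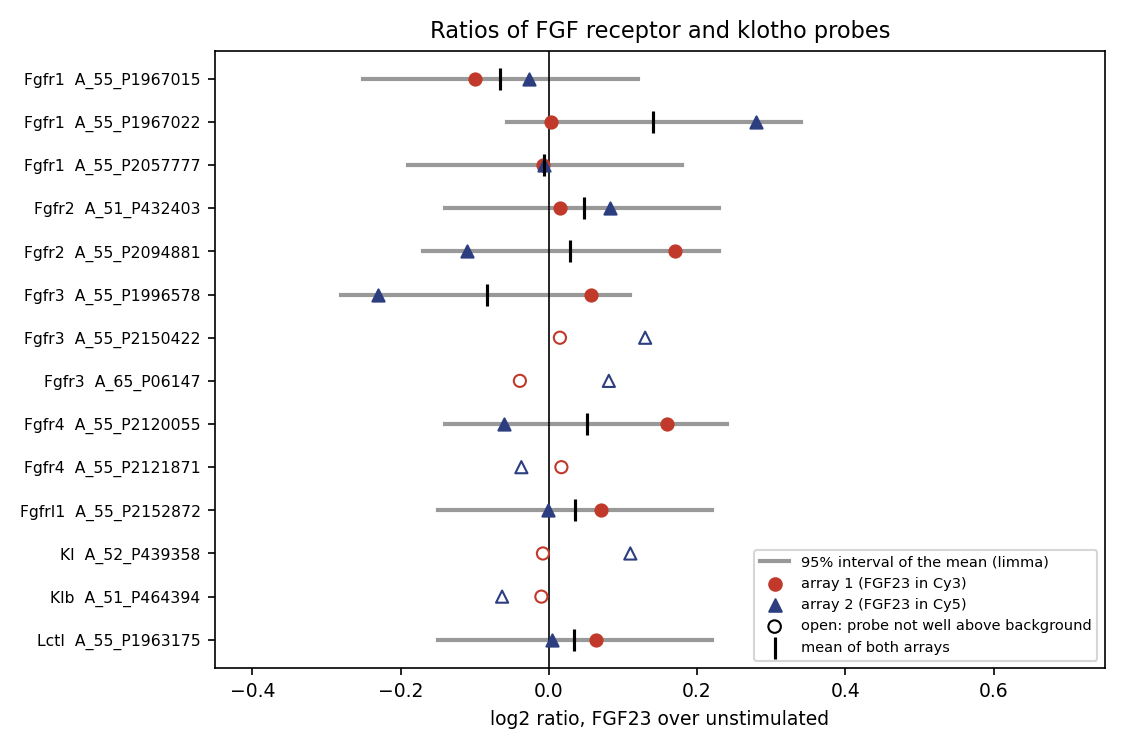
Log2 ratio of FGF23 over unstimulated for each of the 14 probes on array 1 (red circles) and array 2 (blue triangles), with the mean of both arrays as a black tick and its 95% interval in limma as a grey bar. Open symbols are the 5 probes that were not measured. Every bar includes 0.

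The ratio had opposite signs on the arrays for 4 of 6 members (Fgfr2, Fgfr3, Fgfr4 and Fgfrl1), against 53.8% of all genes, and for 4 of 9 measured member probes, against 53.1% of all probes. In other words, for each of these 4 genes the log2 ratio of Cy5 over Cy3 after normalization was below 0 on both arrays, whichever RNA Cy5 carried. Before normalization the Cy5 signal of each was the higher one on both arrays. The mean normalized log2 ratio of Cy5 over Cy3 was -0.14 for Fgfr2, -0.14 for Fgfr3, -0.11 for Fgfr4 and -0.036 for Fgfrl1. On 1 array alone, 5 of 6 members would have been above 0 on array 1 and 5 of 6 below 0 on array 2. The scanner's error model, which judges each spot alone, gave a p under 0.05 for 2 of 46 member spots, against 2.90% of all spots. These were the upstream Fgfr1 probe on array 2 and 1 of 10 spots of the Fgfr2 probe on array 1 (p = 0.046 in the authors' deposited file).

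Genes that work around the receptors were taken from 6 lists with 77 genes, of which 67 were measured. None passed the test over all genes, against 0.0468% of all genes, and 2 of 67 had an unadjusted p under 0.05 in limma, against 3.91%. Among FGF receptor adaptors and proximal effectors 17 of 18 genes were measured and 0 passed in either direction, with a median log2 ratio of 0.0013. The RAS activator gene Sos2 had 0.16 ± 0.095 and the adaptor gene Nck1 had 0.086 ± 0.18 (SD, n = 2 arrays). All 13 genes of the RAS-RAF-MEK-ERK kinase module were measured, 0 passed, and the median was -0.012. Hras, the gene of a RAS GTPase, had -0.099 ± 0.19, and its other probe had 0.075.

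Heparan sulphate chains bind FGFs and assist receptor binding, and 18 of 22 genes of their synthesis and core proteins were measured, with 0 past the test and a median of -0.031. The syndecan gene Sdc3 had 0.12 ± 0.080 and the glypican gene Gpc1 had -0.12 ± 0.026. Of 11 membrane partners and inhibitors of FGF receptors, 10 were measured and 0 passed, with a median of 0.011. Flrt1, which encodes a transmembrane protein that associates with FGF receptors, had log2 ratios of 0.33 and 0.42 on the arrays, a 1.30-fold mean (0.37 ± 0.062). Its unadjusted p was 8.6e-04 and its adjusted p 0.33 in limma, and its other measured probe had 0.25. The adhesion gene Cdh2 had -0.19 ± 0.14.

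Klotho is shed from the membrane by proteases, and all 3 listed genes for them were measured with 0 past the test and a median of 0.079. Adam17 had 0.23 and 0.19 on the arrays (0.21 ± 0.029, unadjusted p = 0.029 and adjusted p = 1.0 in limma), with 0.16 in its other probe. Its mean was 0.36 when taken from Agilent's processed log ratio and 0.32 at a normexp offset of 0, with adjusted p of 0.63 and 0.67 in limma. Adam10 had 0.079 ± 0.012. Of 10 genes for FGF23 processing and endocrine FGFs, 6 were measured and 0 passed, with a median of 0.070. Fgf21 had 0.42 on array 1 and -0.050 on array 2, and its mean of 0.19 became 0.48 with Agilent's processed log ratio. Fam20c, the gene of a secretory kinase that acts on FGF23, had 0.10 ± 0.040, with -0.0077 in its other probe.

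**Figure D4:**
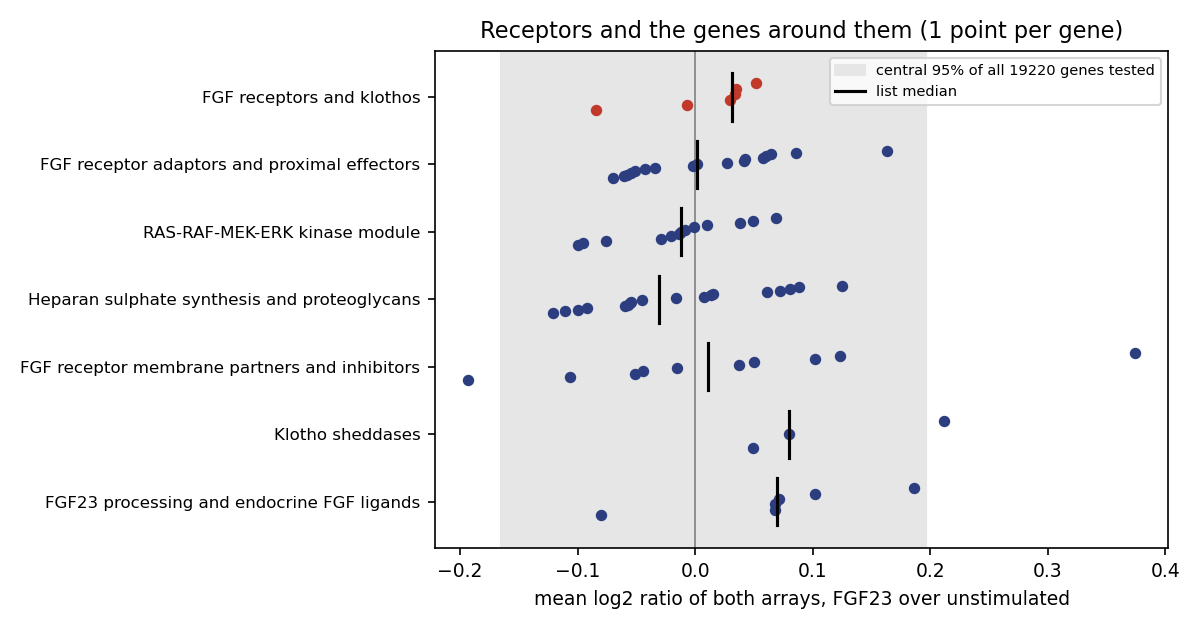
Mean log2 ratio of both arrays, FGF23 over unstimulated, for each measured gene of the receptor and klotho group (red) and of the 6 lists around it (blue), with list medians as black bars. The grey band is the central 95% of all 19220 genes, -0.16 to 0.20. All 6 members lie inside it, and Flrt1 at 0.37 is the point farthest to the right.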

How the data were processed

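The deposited scanner output gave linear intensity values per spot and dye (mean signal, local background and background-subtracted signal), and the file headers name Feature Extraction 11.5.1.1 as the software. The authors' files also held, as deposited, a log10 ratio of Cy5 over Cy3 with its error, the p-value of that ratio and of the spot against background, and flags. For this work, mean signals were corrected with normexp (offset 50) and normalized by loess within each array in limma 3.58.1 (R 4.3.3), with control spots at weight 0. Ratios were turned to FGF23 over unstimulated on the log2 scale, outlier spots left out and spots of a probe averaged. Probes well above background on both arrays of a condition were kept (26941 of 55681). The brightest kept probe stood for a gene. lmFit and eBayes were run on 2 arrays (1 residual degree of freedom, 11.9 from the prior), with Benjamini-Hochberg adjustment at 0.05. They were also run on simulated ratios drawn from this prior without dye effects, which cannot show how they handle such effects. Symbols were updated through RefSeq transcripts of GRCm38.p6 (28026 probes matched). The shift of a doubled signal was computed from the corrected FGF23 signal with and without doubling. All members were named, and of each list the genes past the test or else the 2 with the largest absolute mean ratio, of which 1 gene is not reported here. With 2 arrays, no gene could be named for a similar pattern. Members and lists were chosen with earlier results of these data known. The alternatives are described in the closing section.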

Additional observations from a re-analysis of the deposited data

How the results depend on the processing

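No member passed limma's test under any of the 7 alternatives, and member means stayed between -0.11 and 0.073 over these settings. Under these alternatives the sign of a member gene changed in 1 case, that of Fgfr1, at 0.023 when a gene's probes were averaged. With array 1 or array 2 alone, which gives no test, the sign differed from that of the mean for Fgfr2 (-0.11), Fgfr3 (0.057, and -0.23 on the other array), Fgfr4 (-0.060) and Fgfrl1 (-0.0012). Over the settings the upstream Fgfr1 probe ran from 0.14 to 0.30 (lowest adjusted p 0.96), the 10-spot Fgfr2 probe from 0.046 to 0.12 and Lctl from 0.034 to 0.072. Averaging the probes of a gene moved Hras from -0.099 to -0.012 and Fam20c from 0.10 to 0.047. Genes past the test numbered 9 in the main analysis, 0 with Agilent's processed log ratio (1136 at an unadjusted p under 0.05), 0 with median centring in place of loess (0 unadjusted), 5 with a normexp offset of 0, 17 over averaged probes (16 higher and 1 lower) and 79 with eBayes set to an intensity trend and robust (59 higher and 20 lower). In the last, 1 gene of the pathway lists passed, Flrt1 (adjusted p = 0.021, against 0.31 to 1.0 in the other settings). Probes past the test numbered 23 in the main analysis, 0 with Agilent's log ratio (1552 unadjusted), 0 with median centring (1 unadjusted), 7 with offset 0 and 56 with the trend. The cause of these differences was not tested. Of list medians under processing alternatives, 44 moved within the SD between arrays and 5 beyond it. Each ratio is a within-array pair, so the main analysis was already paired and no further block was fitted.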
